A study of Mus musculus with 74 samples.

Results

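The genes described here are the chemokines, interleukins and interleukin receptors of a mouse reprogramming series, chosen as every gene whose symbol begins with Ccl, Cxcl or Il followed by a digit. The rule found 89 of the 21241 genes in the table of the NSC-medium experiment and 84 of the 20558 genes in the table of a parallel experiment, and all 84 are among the 89. By role they comprise 11 inflammatory CC chemokines, 5 neutrophil-attracting and 2 interferon-inducible CXC chemokines, 9 homeostatic and other chemokines, 10 ligands and antagonists and 9 receptors of the IL-1 family, 5 ligands and 7 receptors of the IL-6 and IL-12 families, 13 other interleukins and 18 other interleukin receptors. Ccl2 and Il1rl1 had been proposed as markers of the set.

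The series followed mouse embryonic fibroblasts (MEFs) carrying a Sox2-GFP reporter after infection with lentiviruses for the transactivator M2rtTA and for doxycycline (Dox)-inducible factors. In NSC medium, which holds bFGF and EGF, 4 cocktails were compared: BKM_FNV (Brn4, Klf4, c-Myc and eSox17FNV, an engineered Sox17), BKM_Sox17 and BKM_Sox2 (the same with Sox17 or Sox2 in place of eSox17FNV) and K_FNV (Klf4 and eSox17FNV). Samples taken on days 4, 8, 12 and 18 had Dox, and those of days 24 and 30 followed its removal. References were uninfected MEFs at passage 1, and primary neural stem cells (NSC) and the induced lines iNSC_KF (from Klf4 and eSox17FNV) and iNSC_BKMF (from Brn4, Klf4, c-Myc and eSox17FNV) at passage 15, all of which carry Sox2-GFP too. In the parallel experiment, Nanog-CreER/Rosa26-tdTomato/Sox2-GFP MEFs with Klf4, c-Myc and eSox17FNV (KM_FNV) were kept in N2B27 medium to day 8, after which they received NSC medium or LIF/2i (LIF plus CHIR99021, which inhibits GSK3, and PD0325901, which inhibits MEK), used to keep mouse stem cells pluripotent. Samples of days 12 and 16 had Dox, and those of days 20 and 24 followed its removal. The MEFs, NSC and iNSC_BKMF of that table were as above, so its MEFs lack the 2 other alleles. Every group had 2 libraries, except BKM_Sox17 and BKM_Sox2 at day 30 with 1 each and BKM_Sox2 at day 24 with 1 usable. Nothing in the labels states that replicates came from different cultures, so a p reflects only the spread between these libraries, which may be technical, and no infected control without factors is compared here.

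Chemokines are small secreted proteins that guide leukocytes through G protein-coupled receptors. CC chemokines such as Ccl2 and Ccl7 recruit monocytes, while CXC chemokines such as Cxcl1 and Cxcl5 recruit neutrophils. Interleukins signal through dedicated receptors: those of the IL-1 family pass through MyD88 to NF-kB, and those of the IL-6 family pass through the shared subunit Il6st (gp130) to JAK and STAT3. Fibroblasts are a known source of these factors, and Il6 and the CXC chemokines are textbook components of the senescence-associated secretory phenotype.

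The deposited values are normalized whole numbers and are given below as such, with the 2 libraries of a group in the order of their replicate numbers. A fold change is a difference of log2(value + 2) with its standard error, so it understates the change of low genes. Where 1 of 2 libraries of a group is at 0 and the other is not, it can be large because of that library. None is given against a side with all libraries at 0, except among the differences of changes flagged at the end, such as Cxcl3 and Il1r2. A gene was called higher or lower when its limma p, adjusted by Benjamini and Hochberg over all genes tested, was below 0.05 and its log2 fold change was at least 1. The values had no length normalization that the sources state, so levels are compared between groups and not between genes. Medians of log2 fold changes over the members depend on the pseudocount of 2 where members are at 0.

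Library sums were 17698400 to 17710100 in the NSC-medium table and 17848700 to 17866000 in the parallel table, nearly equal within a table, so the depth is unknown. Medians were 166 in every NSC-medium library used and 194 or 195 in every parallel library, and single values recur exactly between genes. A value may thus be a position on a distribution shared by the libraries, which was not tested. Replicates correlated at 0.949 to 0.961 in the NSC-medium table and at 0.937 to 0.955 in the parallel table. BKM_Sox2 day 24 replicate 1 correlated at 0.0578 with its replicate and 18322 of its 21241 values lay on a sequence that never falls from the first gene of the table to the last, against at most 4569 in any other library, so its values do not sit on their genes and it was left out. Of 3317 pairs of replicate values of a member, 89 (in 21 members) had 1 library at 0 and the other at 100 or more, as in Il2, where 9 groups of the NSC-medium table did. Summed fibroblast markers (15 genes) were 291839 and 293742 in MEF and 1149 to 1658 in the 6 neural libraries, while 15 neural stem cell markers summed to 3304 and 3407 against 128728 to 182936. Summed macrophage and blood markers (12 of 12 in the table) were 3750 and 4079 in MEF, 165 to 1578 in the cocktails with Dox, 37 to 551 after Dox and 33 to 96 in the neural libraries. C1qa, C1qb, C1qc and Tyrobp, defining macrophage genes, were at 0 in all neural libraries, against 84 to 162 in MEF. Macrophage markers thus moved with every comparison against MEF below, and their part in those results was not tested. In these bulk libraries fewer cells of a type and less RNA per cell cannot be told apart.

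Many members are regulated by NF-kB, and the promoters of 4 members that the results below turn on are shown because each holds an NF-kB consensus match close to the start. RefSeq promoter windows (GRCm38.p6) were found for 69 of the 89 members, and the 250 bases before each start were searched on both strands for the NF-kB consensus and for GGAATTTCC, which overlaps it. The consensus was found in 11 of 86 member windows (12.8%), those of Cxcl1, Cxcl2, Cxcl3, Cxcl10, Ccl9, Ccl20, Il6, Il16, Il19, Il2ra and Il1r1, and in 7.25% of all 32851 windows. GGAATTTCC was found in 7 member windows (8.14%) and in 0.286% of all windows. The plus-strand consensus match of each gene is in capitals, and the overlapping minus-strand matches of the 3 Cxcl genes are not marked. Shown are the 120 bases before the start, 5′ to 3′ on the plus strand of chromosome 5, at 90891125 to 90891244 for Cxcl1, 90903779 to 90903898 for Cxcl2, 90785981 to 90786100 for Cxcl3 and 30012994 to 30013113 for Il6:
Cxcl1: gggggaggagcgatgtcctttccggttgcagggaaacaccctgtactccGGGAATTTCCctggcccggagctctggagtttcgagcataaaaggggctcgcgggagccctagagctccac
Cxcl2: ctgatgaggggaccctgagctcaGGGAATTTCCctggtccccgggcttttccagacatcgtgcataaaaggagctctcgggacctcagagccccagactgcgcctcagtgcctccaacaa
Cxcl3: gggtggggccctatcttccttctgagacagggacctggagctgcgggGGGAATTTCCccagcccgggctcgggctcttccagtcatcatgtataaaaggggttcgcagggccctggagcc
Il6: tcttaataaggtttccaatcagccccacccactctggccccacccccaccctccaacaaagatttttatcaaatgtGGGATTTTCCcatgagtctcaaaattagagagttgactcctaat
The 3 Cxcl genes share the same 10 letters, beginning 71, 97 and 73 bases before the start of Cxcl1, Cxcl2 and Cxcl3, and the match of Il6 begins 44 bases before its start. A match describes letters only.

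**Figure D1:**
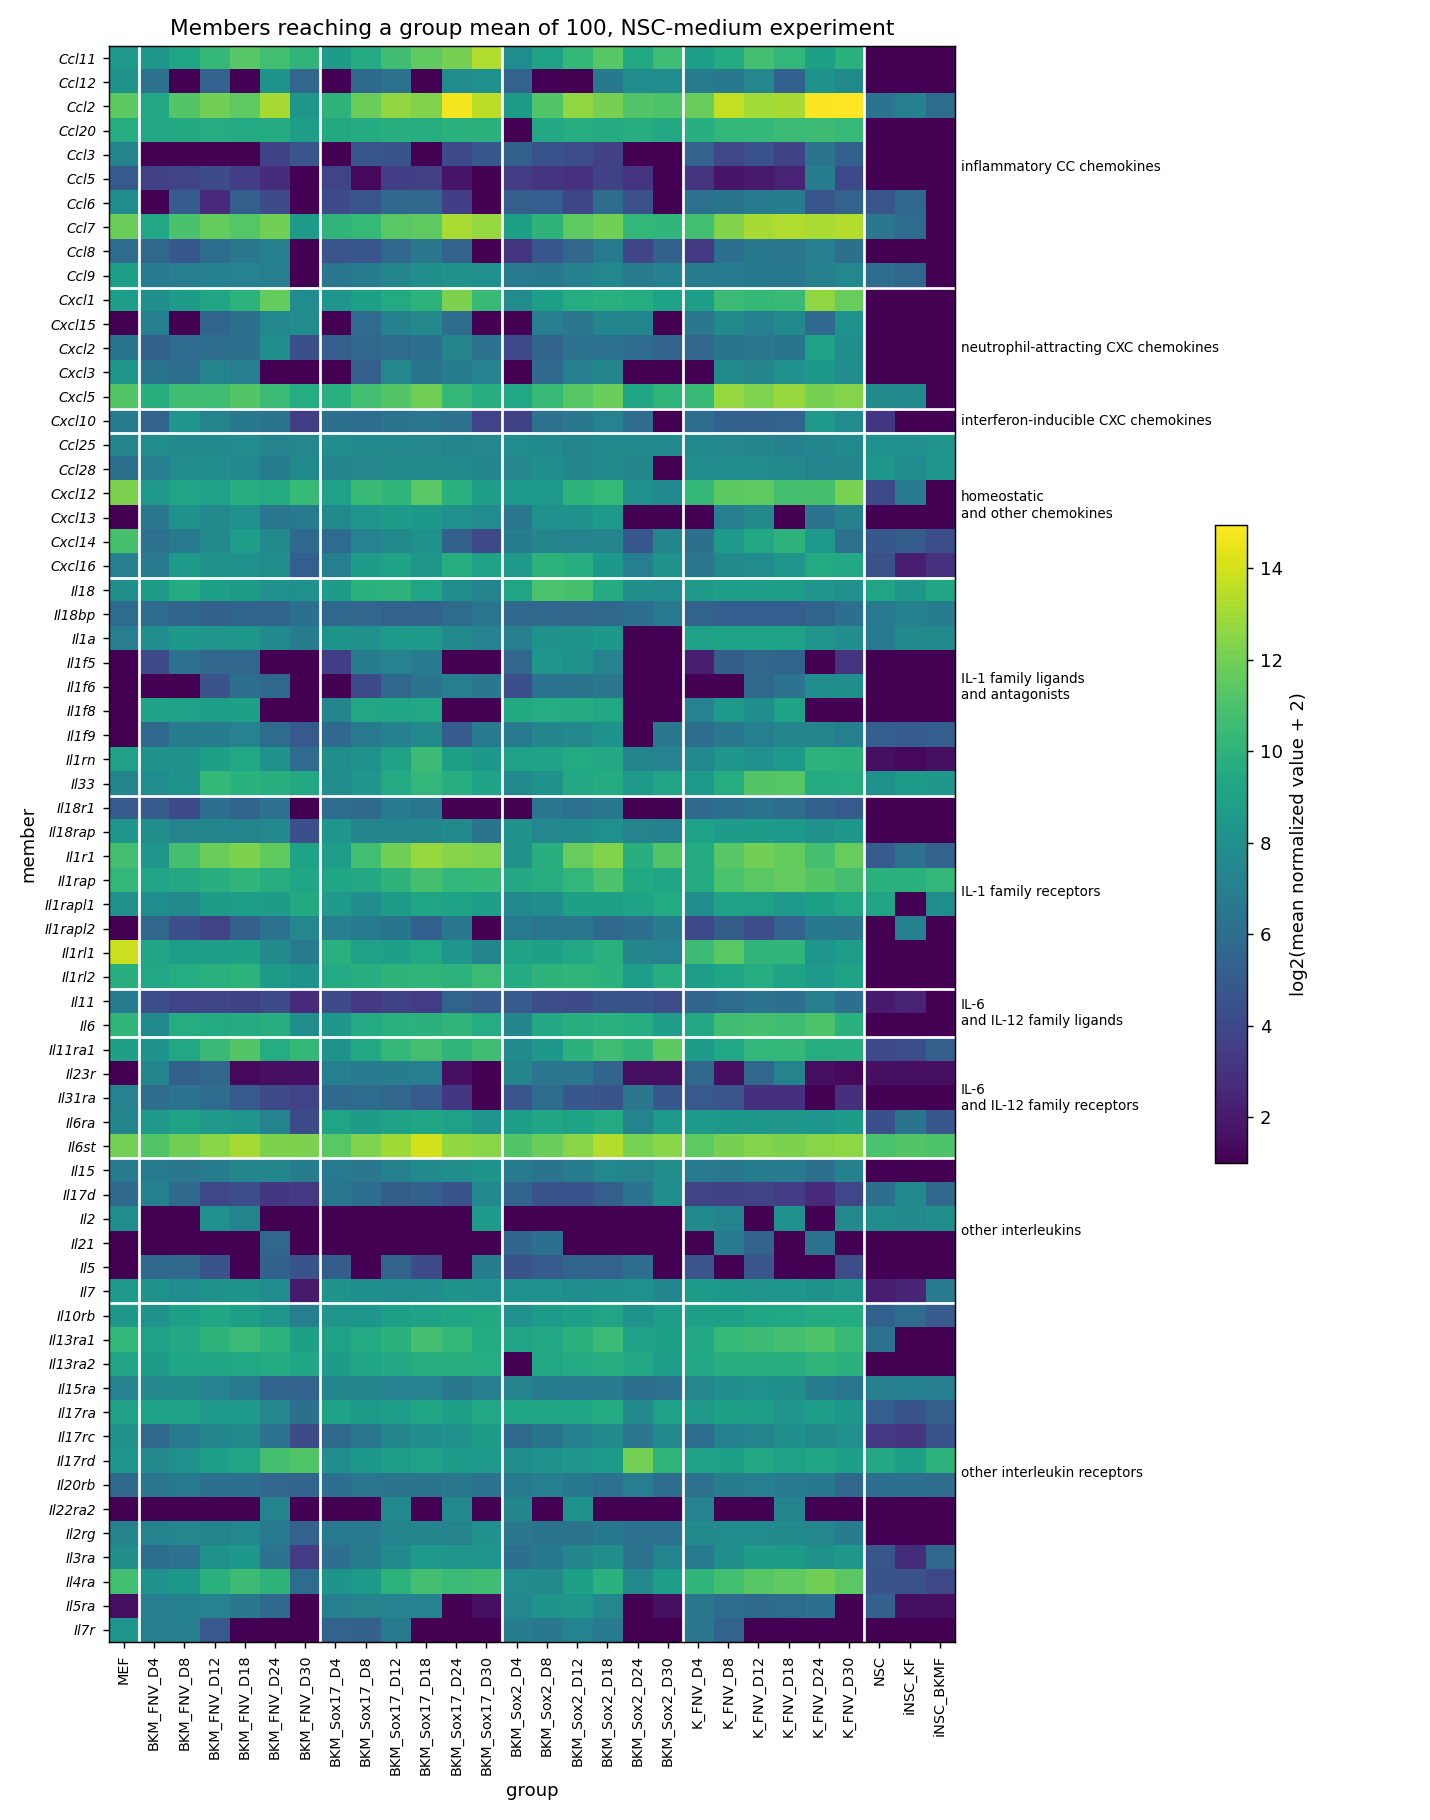
Mean normalized value, as log2(mean + 2), of the 66 members that reached a group mean of 100 (rows, by role) in each group of the NSC-medium experiment (columns; 1 or 2 libraries each). The 3 neural columns at the right are dark for the inflammatory CC chemokines, and Ccl2 is brightest in K_FNV and BKM_Sox17 after Dox.

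Neural stem cells held little of what the fibroblasts expressed. In NSC against MEF, 50 of 89 members were called lower and 8 higher, where 16.7% and 17.7% of all genes tested were called lower and higher, and the median log2 fold change was -3.14 for members and 0.06 for all genes. All 11 inflammatory CC chemokines, both interferon-inducible chemokines, 4 of 5 neutrophil-attracting chemokines and 6 of 7 receptors of the IL-6 and IL-12 families fell. Of the members, 44 had at least 100 in both MEF libraries, and 15 of these were at 0 in all 6 neural libraries.

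Ccl2, the monocyte attractant, had values of 2832 and 2740 in MEF, 155 and 0 in NSC, 106 and 162 in iNSC_KF and 63 and 55 in iNSC_BKMF. All neural libraries lay far below both MEF libraries, with a log2 fold change of -7.30 ± 0.89 in NSC (limma adjusted p = 3.7e-08). Ccl7, its neighbour on chromosome 11 and another monocyte attractant, had 3851 and 3392 in MEF against 0 and 182 in NSC, 0 and 119 in iNSC_KF and 0 in both iNSC_BKMF libraries. Ccl2 (82035571 to 82037453) and Ccl7 (82045712 to 82047525) lie in a cluster with Ccl11, Ccl12 and Ccl8, and all 5 fell. Ccl11, an eosinophil attractant, had 394 and 357 in MEF and was at 0 in all 6 neural libraries. When the spread was taken from the MEF and NSC libraries alone, Ccl2 and Ccl7 (limma adjusted p = 0.08 each), Cxcl5 (0.15) and Ccl28 (0.21) lost their calls in NSC.

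Among CXC chemokines, Cxcl1 was at 453 and 444 in MEF and at 0 in all neural libraries. Cxcl12, which retains stem cells and guides neuronal migration through Cxcr4, had 4630 and 4912 in MEF and 0 and 30 in NSC, a log2 fold change of -9.22 ± 0.62. Cxcl5 had 2452 and 2257 in MEF but 395 and 0 in NSC. Its call rested on 1 library: without NSC replicate 2 the log2 fold change was -2.57 with an adjusted p of 0.13, against -6.38 with both. Il6 had 1083 and 1119 in MEF and was at 0 in all 6 neural libraries, and Il11, a fibroblast cytokine of the same family, had 128 and 112 in MEF and 0 and 4 in NSC.

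Receptors were lower in neural cells too. Il1rl1, the receptor of Il33, had 16288 and 13464 in MEF and was listed at 0 in all NSC, iNSC_KF and iNSC_BKMF libraries. Its neighbours on chromosome 1, Il1rl2 (857 and 860 in MEF) and Il18rap, were also at 0 there, and Il1r1, the signalling IL-1 receptor, fell from 1720 and 1807 to 42 and 18 in NSC. Il4ra went from 1649 and 1694 to 23 and 21. Il6st, the shared gp130 subunit, stayed well expressed, at 4093 and 4240 in MEF and 2099 and 1990 in NSC, a log2 fold change of -1.03 ± 0.15, which was -0.99 and not called without NSC replicate 2. The IL-1 co-receptor Il1rap did not pass, with 1220 and 1169 in MEF and 940 and 999 in NSC.

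A few members were higher in neural cells. Il18, an IL-1 family cytokine, had 241 and 247 in MEF against 513 and 605 in NSC (log2 fold change 1.18 ± 0.11). Il17rd, known as Sef and a feedback inhibitor of FGF signalling, had 308 and 328 in MEF, 548 and 841 in NSC, 543 and 393 in iNSC_KF and 1011 and 1026 in iNSC_BKMF. Without NSC replicate 2 its difference in NSC was 0.78 and no longer called. Ccl28, an epithelial chemokine, had 140 and 0 in MEF and 181 to 346 in the neural libraries. Without the MEF library at 0 its log2 fold change was 1.25 in NSC, against 4.32 with both, and 0.89 and not called in the induced lines. Of the other 5 called higher, Il17f, Il25, Il5ra, Il17rb and Il16, none reached a mean of 50.

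The induced lines were compared with the same MEF libraries. In iNSC_KF and iNSC_BKMF together against MEF, 49 of 89 members fell and 8 rose, beside 17.2% and 17.8% of all genes, with a median of -2.91. Il33, an alarmin of the IL-1 family, rose from 164 and 158 in MEF to 462 and 310 in iNSC_KF and 344 and 343 in iNSC_BKMF (log2 fold change 1.15 ± 0.23, adjusted p = 9.0e-05). In NSC it had 291 and 282 and missed the fold threshold at 0.82. With the library left out kept in the fit, the Il33 call (adjusted p = 0.45) and that of Il18 in NSC (0.31) were lost.

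**Figure D2:**
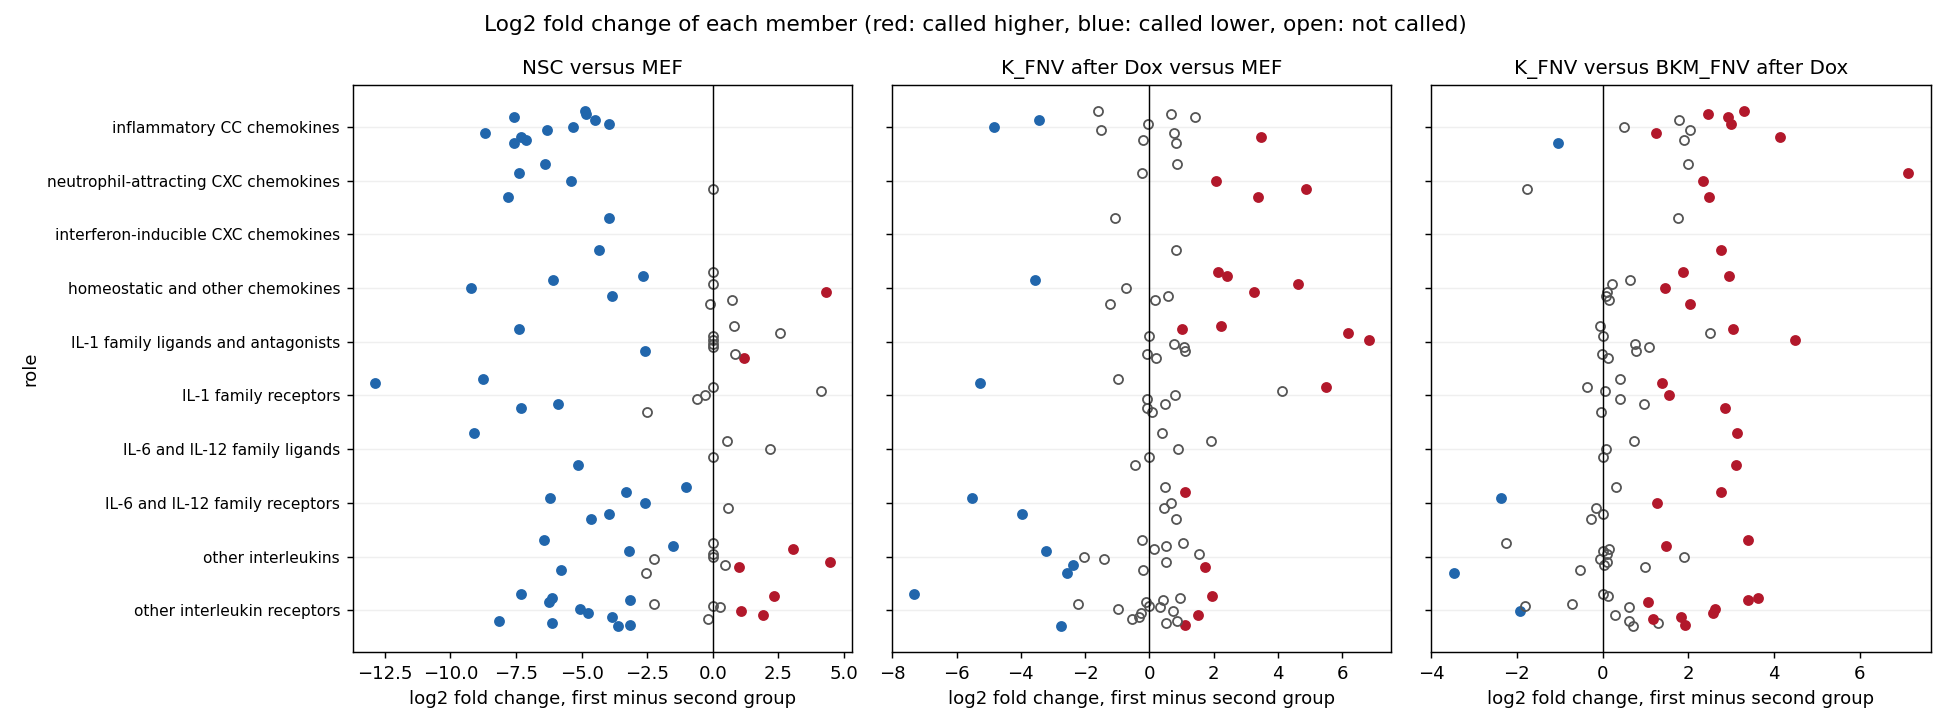
Log2 fold change of every member (horizontal axis, first minus second group) by role (vertical axis) in 3 comparisons, with 1 point per member and no error bars. In NSC against MEF all 11 inflammatory CC chemokines lie to the left of 0, and in K_FNV against BKM_FNV after Dox 10 of these 11 lie to the right.

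Over the 4 cocktails at day 4 (8 libraries) against MEF, 29 of 89 members fell and 12 rose, beside 8.33% and 9.79% of all genes, with medians of -0.47 and -0.02. Inflammatory CC chemokines made up 8 of those that fell. Il1rl1 had 528 and 664 in BKM_FNV, 1000 and 872 in BKM_Sox17, 609 and 430 in BKM_Sox2 and 1445 and 1530 in K_FNV, all far below the MEF libraries (log2 fold change -4.20 ± 0.25, adjusted p = 7.8e-14). Cxcl14, a chemokine of skin and fibroblasts, fell from 1922 and 1903 to between 51 and 132, and Cxcl12 fell to between 312 and 1349. Cxcl3, a neutrophil attractant, fell from 358 and 302 to between 0 and 83. Among those that rose, Il23r (1 to 212) and Il1f9, which is IL-36 gamma (37 to 106), were at 0 in both MEF libraries. Ccl2 had 372 to 3895 at day 4 and was not called (log2 fold change -1.49, adjusted p = 0.078). K_FNV was highest, at 3895 and 3143, above both MEF libraries, while the other 6 libraries lay below them. Macrophage and blood markers summed to 371 to 826 at day 4, and 11 of 12 were called lower than in MEF. For chemokines that macrophages also make, such as Ccl3, Ccl4, Ccl6, Ccl9 and Ccl12 among others, the part of those cells was not tested.

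Il1f8 (IL-36 beta, an epithelial cytokine) was at 0 in both MEF libraries and at 564 and 505 in BKM_FNV and 723 and 675 in BKM_Sox2 at day 4, while BKM_Sox17 (0 and 317) and K_FNV (0 and 289) had 1 library at 0. In the NSC-medium experiment 29 of 32 libraries with Dox had at least 100 and 3 were at 0, and all 13 libraries after Dox, like all 8 MEF and neural libraries, were at 0. The highest value was 808. Of 12 keratinocyte and epithelial markers, 9 were called higher at day 4 than in MEF. Their sum was 395 and 456 in MEF, 5391 to 49587 with Dox and 121 to 10474 after it. These ranges overlap: with Dox K_FNV had 5391 to 8237, while BKM_FNV after Dox, with Il1f8 at 0, reached 10474. In the parallel experiment the sum was 8909 to 12828 in LIF/2i after Dox. The part of these markers was not tested. In the parallel experiment 5 of 12 libraries with Dox had at least 100 and 7 were at 0, and again all 8 after Dox were at 0. Il5ra, the eosinophil receptor of IL-5, had 39 to 342 with Dox and 0 to 85 after Dox in NSC medium. In the labels' descriptions the library names of the 4 cocktails are written in another style for days with Dox than for days after it, and the sources used here do not say whether these days were handled apart.

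**Figure D3:**
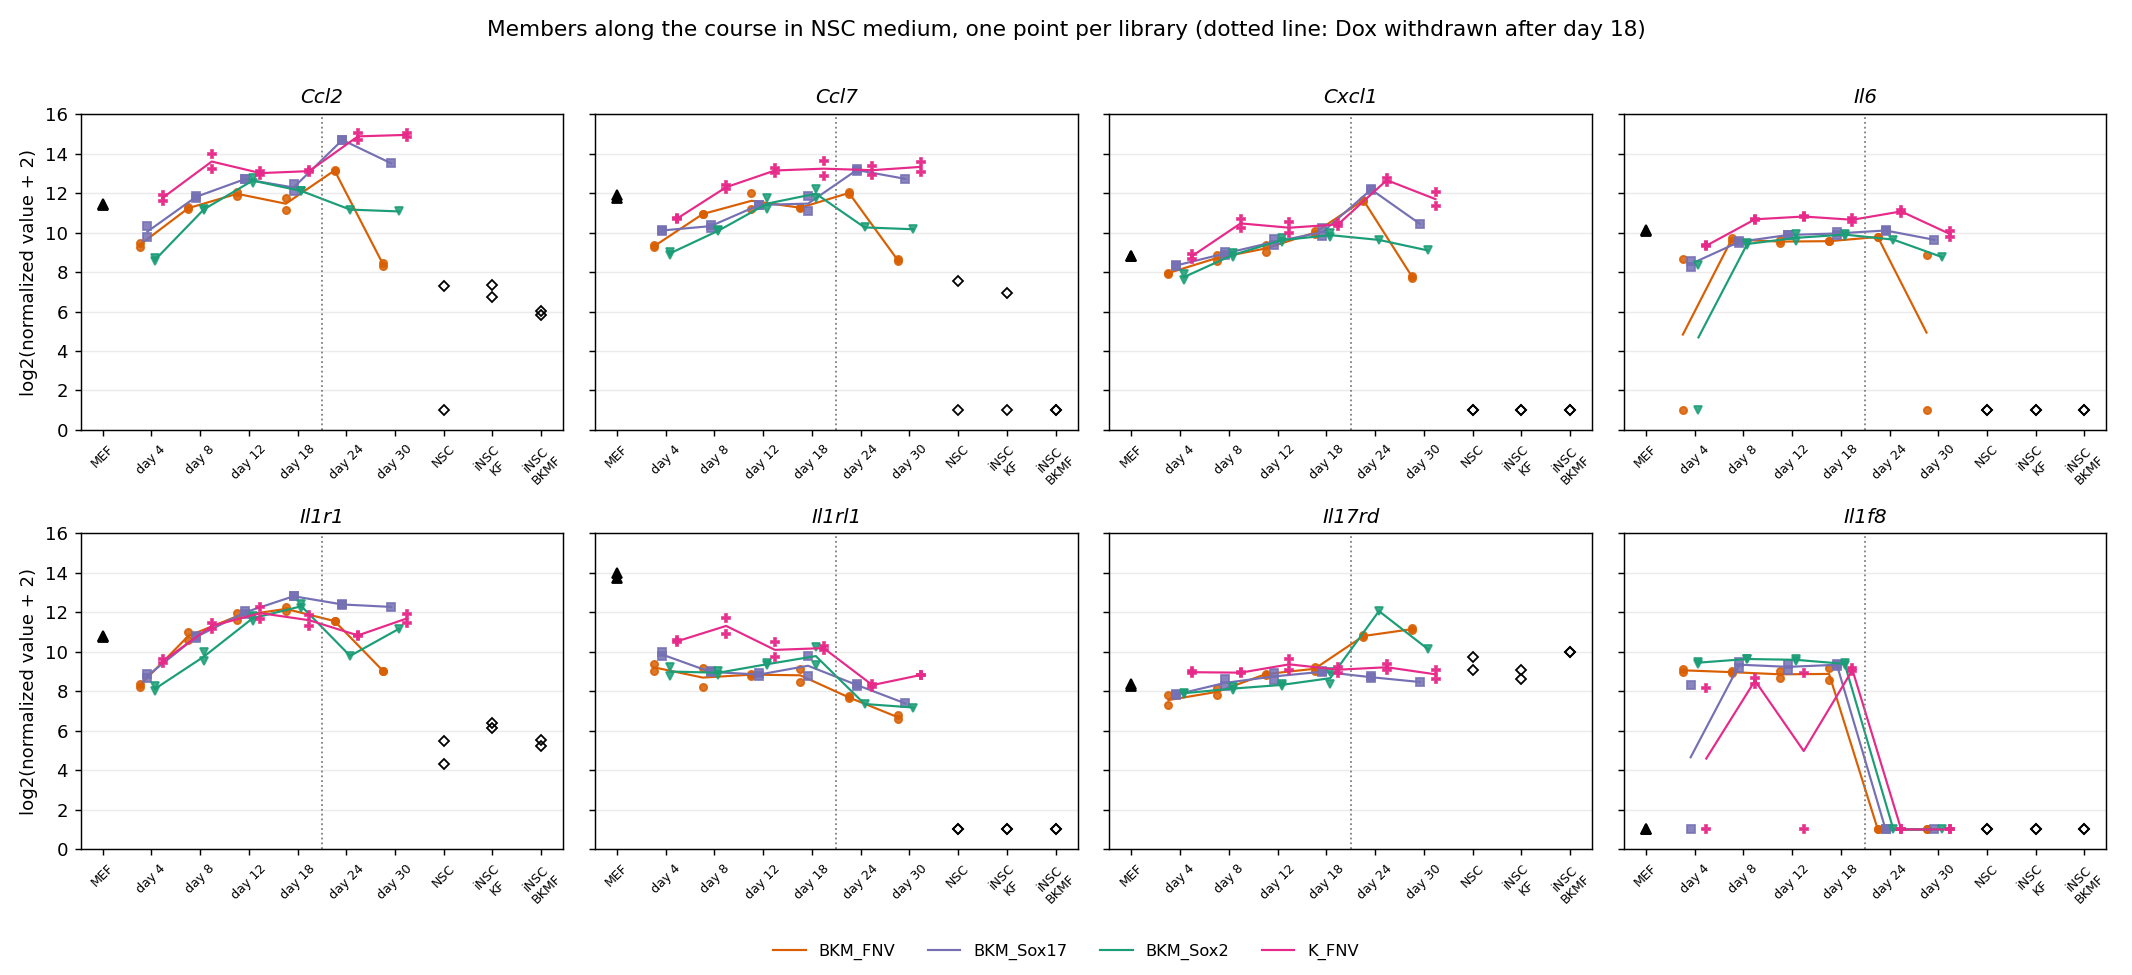
Values of 8 members in the NSC-medium experiment as log2(value + 2) on the vertical axis against MEF, day and neural cells on the horizontal axis, with 1 point per library and lines through the means of the log2 values. Ccl2 and Cxcl1 part by cocktail after Dox, Il1rl1 is highest in MEF, and Il1f8 is at 0 (drawn at 1) in all libraries after Dox.

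During Dox more members rose than fell in both cocktails tested over time. In BKM_FNV, 22 of 89 members were higher and 4 lower at day 18 than at day 4 (11.4% and 11.5% of all genes), and in K_FNV 16 were higher and 3 lower (5.4% and 4.97%). Fibroblast markers in BKM_FNV summed to 101173 to 115892 at day 4 and 292178 to 299585 at day 18, and in K_FNV to 224427 to 230537 and 350068 to 351118. Keratinocyte and epithelial markers in BKM_FNV summed to 6308 to 7034 at day 4 and 19179 to 32208 at day 18, and the part of either list in the counts was not tested. Il1r1 in BKM_FNV had 325 and 299 at day 4, 1548 and 2061 at day 8, 4017 and 3185 at day 12 and 4276 and 5007 at day 18 (log2 fold change 3.88 ± 0.25, adjusted p = 5.4e-13), ending above the MEF libraries. In K_FNV it went from 689 and 789 to 2545 and 3798 (2.07 ± 0.25). Il33 rose from 208 and 225 to 859 and 1100 in BKM_FNV and from 343 and 395 to 2820 and 2173 in K_FNV, above MEF in all of these libraries. Its receptor Il1rl1, with 567 and 353 at day 18 in BKM_FNV, was not called (log2 fold change -0.40, limma adjusted p = 0.34). Cxcl1 rose from 241 and 250 to 1078 and 964 in BKM_FNV and from 484 and 408 to 1441 and 1291 in K_FNV.

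Of 7 receptors of the IL-6 and IL-12 families, 3 rose (Il6st, Il11ra1 and Il27ra) and 1 fell (Il23r) in BKM_FNV, and 1 rose (Il11ra1) and none fell in K_FNV. Il6st went from 2436 and 2180 at day 4 to 8742 and 8384 at day 18 in BKM_FNV (log2 fold change 1.89 ± 0.15). In BKM_Sox17 both day 18 libraries reached 16288, against 2783 and 2600 at day 4. The same 16288 is also listed for Il1rl1 in MEF and for Ccl2 in K_FNV. Il11ra1, which overlaps Ccl27a on the other strand of chromosome 4 and has near-identical copies, so that its counts are uncertain, went from 262 and 286 to 2674 and 2134 in BKM_FNV. Ccl11 rose from 315 and 339 to 2288 and 2902 there. Il1f6, which is IL-36 alpha, and the decoy receptor Il1r2 were at 0 at day 4 and at day 18 had 49 and 79 (Il1f6) and 58 and 52 (Il1r2) in BKM_FNV. Il7r, with 174 and 74 at day 4, was at 0 in both day 18 libraries there, and Il17d fell by 2.79. In K_FNV, Cxcl14 rose from 72 and 66 to 1106 and 932 (3.84 ± 0.30), and Cxcl3 and Il1f6 were at 0 at day 4 and at day 18 at 268 and 265 (Cxcl3) and 65 and 89 (Il1f6). In BKM_FNV, Il6 had 0 and 405 at day 4 and 754 and 757 at day 18 (log2 fold change 4.73). Its call was lost without day 4 replicate 1 (log2 fold change 0.90) and without either day 18 library. It was also lost with the compared groups fitted alone (limma adjusted p = 0.29). Ccl2 in BKM_FNV (712 and 614 to 2276 and 3501) was not called, at an adjusted p of 0.055. With the library left out kept in the fit, Cxcl1, Il33 and Il6 were no longer called in BKM_FNV (adjusted p = 0.37, 0.23 and 0.18). Nor were Cxcl1, Il33 and Il1r1 in K_FNV (0.82, 0.18 and 0.59), and the counts were 16 in BKM_FNV and 10 in K_FNV.

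With Dox, more members were called lower than higher in BKM_FNV against each cocktail with another Sox factor. Averaged over days 4 to 18, 1 of 89 members was higher and 6 lower in BKM_FNV than in BKM_Sox17 (2.29% and 1.43% of all genes). Cxcl12 was lower in BKM_FNV, with 357 to 960 over the 4 days against 490 to 3049 in BKM_Sox17 (log2 fold change -1.17 ± 0.31, adjusted p = 0.0064). The other calls were of low members with libraries at or near 0: Cxcl3 was higher and Il23r, Il1rapl2 and Il1r2 were among those lower. Against BKM_Sox2, 5 were higher and 10 lower (3.37% and 2.81%). Il18 was lower in BKM_FNV (373 to 755) than in BKM_Sox2 (541 to 2180), with a log2 fold change of -1.24 ± 0.05. Il1f5 (12 to 82 against 39 to 317) and Il1f6 (0 to 79 against 0 to 92), both of the IL-36 branch, were lower too. The calls of Ccl20 and Il13ra2, higher in BKM_FNV, rest on day 4, when both genes were at 0 in both BKM_Sox2 libraries. For Ccl2 the log2 difference of BKM_FNV was -0.70 from BKM_Sox17 (adjusted p = 0.26) and -0.13 from BKM_Sox2 (0.89).

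K_FNV lacks Brn4 and c-Myc. With Dox, 20 members were higher and 7 lower in K_FNV than in BKM_FNV (7.5% and 6.97% of all genes). Over these days fibroblast markers summed to 224427 to 417314 in K_FNV and 101173 to 299585 in BKM_FNV, endothelial markers to 3486 to 5653 and 1690 to 2518, and keratinocyte and epithelial markers to 5391 to 8237 and 6308 to 37098. Their part in these calls was not tested. Ccl2 had 3143 to 16288 over the 8 K_FNV libraries (mean over days 8394) and 614 to 4276 in BKM_FNV (mean 2494), a log2 difference of 1.87 ± 0.44 (adjusted p = 0.00068). Cxcl12 (1185 to 3537 against 357 to 960) and Il1rl1 (841 to 3415 against 293 to 664) did not overlap between the 2 cocktails. Il4ra, the receptor subunit for IL-4 and IL-13, was also higher, by 1.69 ± 0.08. Lower were Cxcl10, the interferon-inducible T cell attractant (-1.60 ± 0.42), and Il17d. Cxcl13, the B cell attractant, had 0 to 371 in K_FNV and 81 to 338 in BKM_FNV (log2 difference -4.10 ± 0.83). Il11 was higher in K_FNV (44 to 89 against 9 to 20). With the library left out kept, 16 members were called in place of 27, and the calls of Ccl2 (adjusted p = 0.12), Il33 (0.16) and Cxcl1 (0.29) were lost.

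After withdrawal, K_FNV had 33 members higher and 4 lower than BKM_FNV over days 24 and 30 (10.9% and 10.8% of all genes), with a median log2 fold change of 0.78 against 0.08. Of the 11 inflammatory CC chemokines 6 were higher and 1, Ccl11, lower, and 3 of 5 neutrophil-attracting chemokines and 8 of 18 other receptors were higher. Ccl2 had 34127 and 26500 at day 24 and 29407 and 34127 at day 30 in K_FNV. In BKM_FNV it had 9215 and 8954 at day 24 but 344 and 315 at day 30. All K_FNV libraries lay above all BKM_FNV libraries, and the log2 difference was 4.15 ± 0.63 (adjusted p = 1.9e-06). Neural stem cell markers summed to 14524 to 27506 in BKM_FNV and 4381 to 5351 in K_FNV at these days, while fibroblast markers summed to 253791 to 261430 and 253752 to 315089. Macrophage and blood markers summed to 37 to 284 in BKM_FNV and 244 to 551 in K_FNV, with C1qa, C1qb and C1qc at 0 in all libraries of both cocktails. Tyrobp was at 0 in all BKM_FNV libraries and in K_FNV at day 24, but not in every K_FNV library of day 30. The part of a different mix of cells was not tested.

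Other members too had lower values at day 30 than at day 24 in BKM_FNV. Ccl7 had 4328 and 3917 at day 24 and 379 and 397 at day 30, against 10768 and 7807, then 12147 and 8742, in K_FNV. Cxcl1, whose promoter is shown above, had 3252 and 3143, then 221 and 208, in BKM_FNV, against 6876 and 6067, then 2588 and 4240, in K_FNV (log2 difference over both days 2.48 ± 0.13). Cxcl2 had 247 and 239, then 26 and 13, against 564 and 479, then 210 and 283. Cxcl3 was at 0 in all 4 BKM_FNV libraries and at 214 to 413 in K_FNV. Il4ra had 1064 and 1130, then 64 and 54, in BKM_FNV and 2112 to 3985 in K_FNV, and Il1rn, the IL-1 receptor antagonist, had 36 to 310 against 912 to 1182. Il1f6 had 0 to 54 in BKM_FNV and 140 to 352 in K_FNV, and Il11 2 to 19 and 46 to 177. No test across the 2 days was made.

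Il17rd was higher in BKM_FNV, with 1868 and 1701 at day 24 and 2342 and 2208 at day 30, than in K_FNV, with 397 to 656 (log2 difference of K_FNV -1.94 ± 0.15). Its highest value in the table, 4278, was in the 1 usable BKM_Sox2 library of day 24. Ccl11 was lower in K_FNV (452 to 1191 against 1111 to 1725), at -1.04, and was not called without K_FNV day 30 replicate 2 (-0.86) or without day 24 replicate 1. Il6 had 2258 and 2052, then 1087 and 870, in K_FNV and 889 and 863, then 465 and 0, in BKM_FNV. Its log2 difference was 3.15, and 1.18 and not called without the library at 0, BKM_FNV day 30 replicate 2. The Il6 call was also lost without either BKM_FNV day 24 library and without any of the K_FNV libraries. With the compared groups fitted alone its limma adjusted p was 0.16. With the library left out kept, Il6 (0.17), Ccl7 (0.098) and Il1rl1 (0.069) missed an adjusted p of 0.05.

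In BKM_FNV after Dox, 27 members were lower and 7 higher than in BKM_Sox17 (8.15% and 9.67% of all genes). Neural stem cell markers summed to 14524 to 27506 in BKM_FNV and 2701 to 3580 in BKM_Sox17, and their part was not tested. BKM_Sox17 had 26500 in both day 24 libraries of Ccl2 and 11685 in the day 30 library, above all BKM_FNV libraries, and the log2 difference of BKM_FNV was -3.34 ± 0.70 (adjusted p = 0.00023). Ccl11 had 4240, 4388 and 10066 in BKM_Sox17 against 1111 to 1725, and Il1r1 5448, 5365 and 4962 against 517 to 3025. Il3ra (8 to 80 against 298 to 312), Il1f6 (0 to 54 against 95 to 126) and Ccl9 (0 to 135 against 263 to 289) were lower in BKM_FNV too, and Cxcl3 was at 0 in its 4 libraries. Higher in BKM_FNV were Il17rd (434, 403 and 353 in BKM_Sox17) and Cxcl14 (52 to 220 against 15 to 39). Against BKM_Sox2, with 2 usable libraries, 7 members were higher and 12 lower in BKM_FNV (8.72% and 6.42%). There Ccl2 had 2295 and 2151, and its difference averaged over both days was not called (log2 difference -0.36, adjusted p = 0.76). That average joins opposite differences: the BKM_FNV libraries given above lay above both values at day 24 and below both at day 30. Cxcl12 was higher in BKM_FNV (757 to 1431 against 267 and 200, log2 difference 2.18 ± 0.54). Il1a, the alarmin IL-1 alpha, had 98 to 216 in BKM_FNV and was at 0 in both BKM_Sox2 libraries, while Il17d was lower in BKM_FNV (5 to 10 against 79 to 242). These comparisons share the BKM_FNV libraries. With the library left out kept, Ccl2 (0.087), Ccl7 (0.27), Cxcl1 (0.36) and Il1r1 (0.19) were not called between BKM_FNV and BKM_Sox17.

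K_FNV cells after Dox, compared with the MEFs they came from, had 18 members higher and 11 lower (10.7% and 8.38% of all genes). Ccl2, at 26500 to 34127, was above 2832 and 2740 by 3.47 ± 0.77 on the log2 scale (adjusted p = 0.00041). Cxcl1 rose by 3.36 ± 0.16 and Cxcl2 by 2.08 ± 0.28. Il33 rose by 2.21 ± 0.23, with 558 to 959. Il1rl1 stayed low at 301 to 455 against 16288 and 13464, and Cxcl14 fell by 3.55. Il31ra, the IL-31 receptor, had 145 and 146 in MEF and 0 to 11 in K_FNV. Il1f6 (140 to 352) and Il1f9 (120 to 183) were at 0 in both MEF libraries. Il7r, the IL-7 receptor, was at 0 in all 4 libraries. Il6, Cxcl12 and Cxcl5 did not pass: the log2 differences were 0.39, -0.72 and 0.86. Macrophage and blood markers summed to 244 to 551 in K_FNV after Dox and to 3750 and 4079 in MEF. C1qa, C1qb and C1qc were at 0 in all 4 K_FNV libraries, while Tyrobp was not at 0 in every library of day 30. The part of such cells was not tested. Kept in the fit, the library left out ended the calls of Ccl2 (0.11) and Il33 (0.12) and left 18 members called in place of 29.

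Against the line iNSC_KF, 51 members were higher and 4 lower in K_FNV after Dox (17% and 17.1% of all genes), with a median of 2.46 against -0.18. All 5 neutrophil-attracting chemokines, 9 of 11 inflammatory CC chemokines and 7 of 9 IL-1 family receptors were higher. Cxcl1, Il6, Ccl11, Ccl20, Il13ra1 and Il13ra2 were at 0 in both iNSC_KF libraries. Il17d, with 203 and 192 in iNSC_KF and 4 to 15 in K_FNV, and Il18bp, the decoy for Il18, with 132 and 145 against 42 to 71, went the other way.

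In the parallel experiment, at day 4 in N2B27, 17 of 83 tested members were lower and 7 higher than in MEF (8.53% and 9.88% of all genes). Il1rl1 went from 19620 and 16245 to 546 and 549 (log2 fold change -5.02 ± 0.25, adjusted p = 1.4e-09) and Il1r1 from 1613 and 1695 to 289 and 313. Il1rn rose from 522 and 475 to 1444 and 1316. Cxcl12, with 3982 and 4203, was close to the 4399 and 4725 of MEF (log2 difference -0.16, adjusted p = 0.94). Cxcl15 was at 0 in MEF and at 451 and 439 at day 4. Il7r (310 and 332 in MEF), Ccl12, Ccl4 and Cxcl2 were at 0 in both day 4 libraries. The MEFs compared are of the simpler genotype and uninfected, while the day 4 cells were infected and in N2B27. Macrophage markers summed to 429 and 500 against 3724 and 4044 in MEF. Genotype, infection, medium and macrophages cannot be told apart from the factors here.

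With Dox, 19 members were lower and 4 higher in LIF/2i than in NSC medium (7.45% and 8.07% of all genes). Ccl2 had 9066 and 12178 at day 12 and 24916 and 17710 at day 16 in NSC medium, and 1552 and 1219, then 1192 and 1056, in LIF/2i (log2 difference -3.58 ± 0.89, adjusted p = 0.0042). The 4 libraries of each medium did not overlap. The interferon-inducible Cxcl10 had 277 to 376 against 44 to 98. Cxcl9, another interferon-inducible chemokine, had 122 to 207 against 22 to 52. Its call was lost without day 12 replicate 1 (adjusted p = 0.054), day 12 replicate 2 (0.078) or day 16 replicate 1 (0.083) of NSC medium, or without day 12 replicate 1 (0.089) or day 16 replicate 2 (0.094) of LIF/2i. Cxcl16, a membrane-bound chemokine and scavenger receptor, had 363 to 557 against 104 to 133. Il1r1 (441 to 2583 against 248 to 394) and Il15 (136 to 167 against 37 to 106) were lower in LIF/2i as well. So was Il1rl1, but its log2 difference was -0.89 and not called without NSC medium day 16 replicate 1. Higher there was Cxcl14, with 370 to 455 against 100 to 222. Cxcl5 did not pass (3524 to 5082 in LIF/2i against 943 to 2766, log2 difference 1.35, adjusted p = 0.28), although its libraries did not overlap.

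After Dox, 19 members were lower and 3 higher in LIF/2i (12.3% and 12.2% of all genes). Il1r1 had 6321 and 7352 at day 20 and 6321 and 6727 at day 24 in NSC medium against 511 and 711, then 681 and 640, in LIF/2i, a log2 difference of -3.40 ± 0.19 (adjusted p = 1.2e-09). Ccl11 had 1543 to 3020 against 129 to 245 (-3.73 ± 0.16). Il33 (1328 to 1675 against 418 to 591), Il15 (227 to 393 against 68 to 86) and Il6 (697 to 2591 against 442 to 893) were lower in LIF/2i. Cxcl9 had 98 to 160 against 0 to 35. Ccl2 had 17710 in both day 20 libraries and 1225 and 5324 at day 24 in NSC medium, and 649 to 2502 in LIF/2i. Its call (log2 difference -2.47, adjusted p = 0.027) was lost without NSC medium day 24 replicate 2 (-1.94, 0.11), without either day 20 library of NSC medium (0.06 and 0.057), and without LIF/2i day 20 replicate 1 (0.076) or day 24 replicate 1 (0.068). Cxcl14 (192 to 536 against 25 to 53) and Il34, a ligand of the macrophage receptor Csf1r (20 to 96 against 3 to 8), were higher in LIF/2i. Cxcl1 was not called (log2 difference -0.25), with 15437 and 10625 in NSC medium and 3713 and 5430 in LIF/2i at day 20 and 388 and 775, and 959 and 1292, at day 24. Fibroblast markers summed to 359692 to 376774 in NSC medium and 211058 to 326817 in LIF/2i after Dox, 5 of 15 being lower and none higher in LIF/2i, while 12 of 13 naive pluripotency markers were higher there. The part of the mix of cells was not tested.

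**Figure D4:**
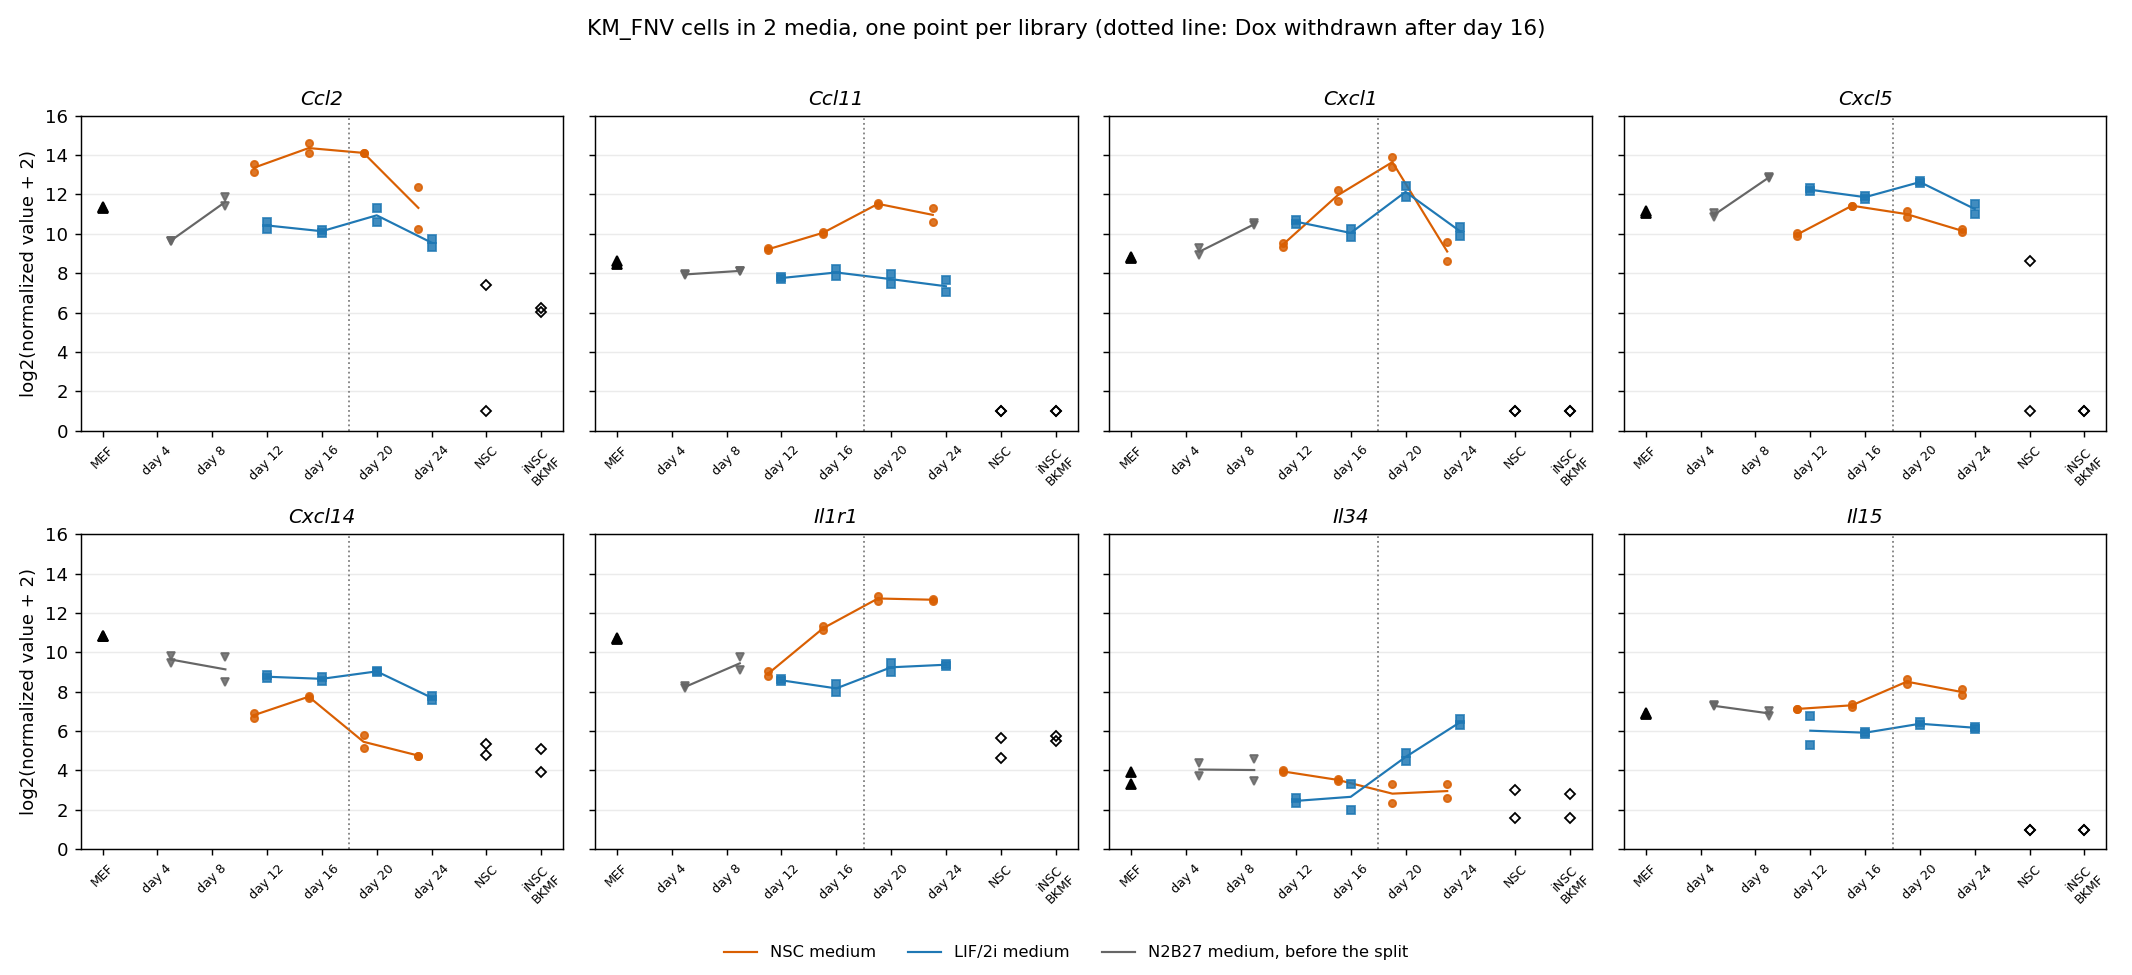
Values of 8 members in the parallel experiment as log2(value + 2) on the vertical axis against MEF, day and neural cells on the horizontal axis, with 1 point per library and lines through the means of the log2 values. The NSC-medium and LIF/2i points of Il1r1 and Ccl11 do not overlap after Dox, and Il34 increases in LIF/2i, to 77 and 96 at day 24.

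In LIF/2i 1 member was higher and 8 lower after than with Dox (6.4% and 5.16% of all genes), the 1 being Il34, at 2 to 8 with Dox and 20 to 96 after it. In NSC medium 10 members were higher after than with Dox and 6 lower (11.2% and 9.33%). There fibroblast markers summed to 80160 to 196828 with Dox and 359692 to 376774 after it, and keratinocyte and epithelial markers to 19626 to 29390 and 2898 to 8379. Their part was not tested. Il1r1 rose by 2.63 ± 0.19 (adjusted p = 4.6e-08), Il33 by 1.52 ± 0.08 and Ccl11 by 1.61 ± 0.16, and Il6st went from 1483 to 3678 with Dox to 5080 to 6321. Il17rd rose from 285 to 357 to between 595 and 1771, and Cxcl14 fell by 2.17. Il2rg, the common gamma chain, had 316 to 571 with Dox and 98 to 192 after it in NSC medium, and 257 to 436 and 138 to 160 in LIF/2i. Cxcl12 rose by 1.64, a call lost without day 16 replicate 1 (adjusted p = 0.068), day 20 replicate 2 (0.051) or day 24 replicate 2 (0.064).

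Genes of the connected pathways were read from lists of chemokine receptors (15 tested in each table), NF-kB and IL-1 signalling (24), JAK-STAT signalling (23 and 24) and other secreted inflammatory factors (17). In NSC against MEF, 14 of 24 NF-kB genes were lower and 1 higher, 13 of 23 JAK-STAT genes were lower and 3 higher, and 11 of 17 secreted factors were lower. Ptgs2, the inducible cyclooxygenase, had a mean of 15485 in MEF and was at 0 in NSC, as was Osmr, the oncostatin M receptor (3079 in MEF). In K_FNV against BKM_FNV after Dox, 11 of 24 NF-kB genes were higher and none lower, led by Cebpb (2.96 ± 0.20), Irak2 and Ikbke, and 12 of 17 secreted factors were higher and 1 lower, led by Mmp3 (means 34134 and 1350), Lcn2 and Saa3. In BKM_FNV against BKM_Sox17 after Dox 11 of 24 NF-kB genes were lower, with Cebpb at -2.93 ± 0.23. In LIF/2i against NSC medium after Dox, 5 of 24 NF-kB genes and 11 of 24 JAK-STAT genes were lower and 1 of each higher. Among chemokine receptors 2 of 15 were higher and 1 lower in K_FNV than in BKM_FNV, the lower being Cxcr4, the receptor of Cxcl12 (means 55 and 212). The shares of all genes called in each comparison are those given above.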

How the data were processed

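RNA-seq values of 74 labelled mouse samples were used, in 2 tables that the authors normalized apart. Per the submitters' processing notes, Bowtie2 2.0, RSEM and the mm10 build were used, and the normalization method is not given in the sources used here. The deposited values are whole-number normalized tag counts, treated as a score and not as raw counts, with unknown depth, and 4 columns without a labelled sample were not used. The columns of NSC matched the labels by group only.

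The log2(value + 2) of the 20760 and 20468 genes that reached 10 in 2 or more libraries was fitted by group with limma 3.58.1 in R 4.3.3 (trended empirical Bayes, all groups of a table, two-sided, Benjamini-Hochberg adjustment per comparison). Comparisons over several days average the differences within days. A call needed an adjusted p below 0.05 and a fold of at least 2. The fit was tested on simulated data with even noise and changes placed only in well-expressed genes. It held no replicates with 1 library dropping to 0, so it does not test calls that rest on such libraries. In all, 18 comparisons were made. BKM_Sox2 day 24 replicate 1 was left out. Alternatives kept it, changed the pseudocount to 10, dropped the filter, shifted libraries to one median, fitted the compared groups alone, blocked on replicate number and left out each replicate.

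Members and lists were chosen with earlier results of these data known. The plan was to name Ccl2, Ccl7, Cxcl1, Cxcl5, Cxcl12, Il6, Il11, Il33, Il34, Il1r1, Il1rl1 and Il6st. It added per comparison up to 4 called members with the largest rise and fall whose mean reached 50. Not all of these are given in every comparison. Ccl7 is left out of the parallel experiment and Il34 of the NSC-medium results. There Il34 calls in NSC against MEF, BKM_FNV over time, and K_FNV after Dox against BKM_FNV and iNSC_KF ended with a pseudocount of 10. Others named were chosen after their values were seen. Gene positions are from the GRCm38 annotation.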

Additional observations from a re-analysis of the deposited data

Results flagged for a closer look

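The change of a member was compared between settings by an interaction term in limma, adjusted by Benjamini and Hochberg over all genes. Between media, 11 of 83 members differed in their change from with Dox to after Dox, beside 13.9% of all genes. Those that were also called within a medium or cocktail and reached a mean of 50 are given, here as LIF/2i minus NSC medium on the log2 scale. Ccl11 differed by -1.99 (-0.38 in LIF/2i, 1.61 in NSC medium), Il1r1 by -1.70 (0.93 and 2.63) and Il17rd by -1.41 (0.33 and 1.74). Cxcl14 differed by 1.83 (-0.34 and -2.17) and Il34 by 3.86 (3.01 and -0.85). Il1rn differed by -1.12 (-1.01 and 0.11), and Cxcl15 by -4.24 (0.45 and 4.69), where 3 of the 4 NSC-medium libraries with Dox were at 0.

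Between cocktails, 13 of 89 members differed in their change from day 4 to day 18, beside 14.7% of all genes. Values are K_FNV minus BKM_FNV. Smaller rises in K_FNV were seen for Il1r1 (-1.81, from 2.07 against 3.88), Ccl11 (-1.50, from 1.47 against 2.97), Il17rd (-1.46, from 0.12 against 1.58), Il11ra1 (-1.41, from 1.71 against 3.12), Il6st (-1.17, from 0.72 against 1.89) and Il4ra (-1.14, from 1.41 against 2.55). Cxcl14 rose more in K_FNV (1.19, from 3.84 against 2.65), and Il17d fell in BKM_FNV but was not called in K_FNV (2.45, from -0.35 against -2.79). Cxcl3 (6.58), Il1r2 (-4.21) and Il23r (9.13) rest on libraries at or near 0: K_FNV day 4 for Cxcl3, BKM_FNV day 4 for Il1r2 and BKM_FNV day 18 for Il23r.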

How the results depend on the processing

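No called member followed by name changed the sign of its log2 fold change in an alternative. Members not called and the direction of counts were not checked in this way. With BKM_Sox2 day 24 replicate 1 kept in the fit, the members called numbered 16 in place of 26 for BKM_FNV day 18 against day 4, 10 in place of 19 for K_FNV day 18 against day 4, 3 in place of 7 for BKM_FNV against BKM_Sox17 with Dox, 16 in place of 27 for K_FNV against BKM_FNV with Dox and 18 in place of 29 for K_FNV after Dox against MEF. With a pseudocount of 10, BKM_FNV against BKM_Sox17 with Dox gave 4. Shifting libraries to one median changed no count. Among the members followed by name, fitting the compared groups alone ended 23 calls and added 20. It ended those of Ccl28 in the induced lines against MEF (limma adjusted p = 0.13) and of Cxcl3 (0.065) and Il1rapl2 (0.054) in BKM_FNV against BKM_Sox17 with Dox. Leaving out each replicate in turn gave 6 to 12 for LIF/2i after against with Dox (9 with all libraries), 20 to 26 for BKM_FNV over time, 5 to 8 for BKM_FNV against BKM_Sox17 with Dox, 29 to 41 for day 4 against MEF, 51 to 56 for NSC against MEF, 34 to 38 for K_FNV against BKM_FNV after Dox and 21 to 29 for K_FNV after Dox against MEF. Replicate numbers did not pair the libraries: correlations of deviations ran from -0.0756 to 0.0918 over 276 pairs and from -0.0498 to 0.0876 over 66 pairs. With a replicate block, counts stayed within 1.5 times, such as 40 for K_FNV against BKM_FNV after Dox (37 without) and 44 for day 4 against MEF (41), while Ccl12 and Il1rapl1 lost their calls between LIF/2i and NSC medium after Dox (adjusted p = 0.055 and 0.058), as did Ccl12 at day 4 against MEF (0.06), Il1rapl1 in NSC medium after against with Dox (0.064) and Il1rapl2 in the iNSC lines against MEF (0.056). The NSC columns match the labels by group only; with the number in their column names as a replicate block, an alternative chosen after seeing the data, NSC against MEF gave 58 members called, as without it. Depth is unknown, 0 may be a failed estimate, and most groups had 2 libraries.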
